A study of Mus musculus with 26 samples.

Results

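The 9 genes described here feed, recruit or anchor myeloid cells, and they were followed in the lungs of mice given carbon nanotubes. They are the growth factors Csf1, Il34, Csf2 and Csf3, the receptor Csf1r, the chemokine receptors Ccr1, Ccr2 and Cx3cr1, and the membrane-bound chemokine Cx3cl1. They were chosen by name, and their probes were found by the RefSeq accession of each probe. Of the 9 genes, 7 had a probe that passed the filter on dim probes and were tested among 22950 features. Csf3 and Ccr1 did not pass it and are given by their values.

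The lungs came from 25 MutaMouse animals, a strain with a transgene in which mutations can be counted, labelled female and about 12 weeks old. Groups of 5 received either NM-401 or Mitsui XNRi-7, which are multiwalled carbon nanotubes suspended in mouse serum, at 42.7 µg per mouse (low) or 128 µg per mouse (high). The nanotubes were instilled into the trachea in 4 weekly doses, and the lungs were collected after a further 56 days. The fifth group was the control. The sources differ over its treatment: the study design calls it a vehicle control, while the treatment protocol has olive oil given by gavage. They also differ over sex, since the study design says male, and it is not stated if the amount was given at each of the 4 instillations or split over them. Xist was well above background on both its probes in 24 of 25 animals, the exception being NM-401 high animal 2, while the Y gene Eif2s3y was so in 22 and the Y genes Ddx3y and Kdm5d in 0. RNA was taken from random sections of the lung. The lung markers Sftpc, Sftpb, Scgb1a1 and Ager were well above background in 25 of 25 animals, and so was the heart muscle gene Myh6.

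Each value is a log2 ratio, of Cy5 from the lung of 1 animal over Cy3 from a universal mouse reference RNA. It places a gene in 1 animal against the same gene in another, and does not rank genes against each other. Where 4 values follow a gene, they are for the low and the high dose of NM-401 and then the low and the high dose of Mitsui XNRi-7, called the group order below. A log2 change is the difference between the means of 2 groups, given ± the standard error of the limma model with n = 5 animals per group. A gene is said to have risen or fallen where the Benjamini-Hochberg adjusted p over all 22950 features was under 0.05 by limma. Because whole lung was measured, more RNA per cell and more cells that carry the RNA cannot be told apart.

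CSF1 and IL-34 are separate ligands of 1 receptor, CSF1R, which monocytes and macrophages need to survive and mature. GM-CSF, the product of Csf2, is made largely by alveolar epithelium in the healthy lung and is required for alveolar macrophages to form and to clear surfactant. G-CSF, the product of Csf3, drives neutrophil production. CCR2 lets inflammatory monocytes leave the bone marrow and follow CCL2, CCL7 and CCL12, CCR1 answers to CCL3, CCL6, CCL9 and related chemokines, and CX3CR1, carried by patrolling monocytes and many tissue macrophages, binds CX3CL1 displayed on endothelium and epithelium.

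The sequences just before the start sites are shown for the 3 genes that rose in every exposed group and have an entry in the promoter table, and for the gene that fell. They are RefSeq promoters of GRCm38.p6, 250 bases up to the start, read 5′ to 3′ on the gene's strand. Capitals mark GAGGAA, the core letters bound by the myeloid factor PU.1, or TTCCTC, the same letters on the other strand. The spans are chr3:107760470-107760719 (minus strand) for Csf1, chr11:54249900-54250149 (minus strand) for Csf2, chr9:120068297-120068546 (minus strand) for Cx3cr1 and chr8:94771930-94772179 (plus strand) for Cx3cl1.
Csf1: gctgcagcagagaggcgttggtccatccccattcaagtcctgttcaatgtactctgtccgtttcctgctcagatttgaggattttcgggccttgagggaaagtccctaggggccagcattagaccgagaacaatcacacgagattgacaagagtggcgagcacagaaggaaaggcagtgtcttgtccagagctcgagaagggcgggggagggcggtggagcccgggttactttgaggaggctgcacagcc
Csf2: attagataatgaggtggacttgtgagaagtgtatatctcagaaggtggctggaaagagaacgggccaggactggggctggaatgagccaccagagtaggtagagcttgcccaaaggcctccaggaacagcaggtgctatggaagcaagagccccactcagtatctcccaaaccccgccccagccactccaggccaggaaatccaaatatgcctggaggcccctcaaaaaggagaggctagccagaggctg
Cx3cr1: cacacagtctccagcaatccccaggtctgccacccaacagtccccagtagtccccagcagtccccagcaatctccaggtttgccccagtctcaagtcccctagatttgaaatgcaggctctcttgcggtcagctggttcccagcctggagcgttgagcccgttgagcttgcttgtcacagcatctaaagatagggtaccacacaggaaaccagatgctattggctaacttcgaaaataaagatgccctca
Cx3cl1: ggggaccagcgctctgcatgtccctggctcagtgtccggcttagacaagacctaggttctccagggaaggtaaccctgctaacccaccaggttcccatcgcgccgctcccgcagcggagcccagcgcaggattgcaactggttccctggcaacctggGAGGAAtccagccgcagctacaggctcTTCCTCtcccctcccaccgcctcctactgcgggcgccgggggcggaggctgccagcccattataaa
Among these 4 sequences, GAGGAA was found in that of Cx3cl1 alone, at position -93 on the gene's strand and -66 on the opposite strand, counted from the start site. Over the 6 listed genes with an entry, searched with the 50 bases after the start as well, Ccr1 also held it, at -129, and the AP-1 letters TGACTCA were in 0. Of all 32851 promoters in the table, 28.3% held GAGGAA and 5.2% held TGACTCA on either strand. A match is only a match of letters, and a missing match says nothing of whether either factor binds. The share of G and C from 250 bases before to 50 after the start was 58.7% for Csf1, 56.7% for Csf2, 54.3% for Cx3cr1 and 64.7% for Cx3cl1, beside a median of 52.7% over the table. In the RefSeq gene order, Csf2 lies next to Il3, Cx3cl1 lies between Ccl22 and Ccl17, and Cx3cr1 lies next to Ccr8.

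Csf1, Il34, Csf2 and Cx3cr1 rose in all 4 exposed groups, and Cx3cl1 fell in all 4. Csf1r rose in NM-401 high, and Ccr2 passed the test in none. In NM-401 low 4 of the 7 tested genes were higher and 1 lower, where 8.95% of all features were higher and 8% lower (16.9% either way). In NM-401 high 5 of 7 were higher and 1 lower, where 18.4% of features were higher and 16.4% lower (34.8% either way). Mitsui low gave 4 higher and 1 lower, beside 10.6% and 10.4% of features (21% either way). Mitsui high also gave 4 higher and 1 lower, beside 12.7% and 11% (23.7% either way). Exposed and control animals did not overlap for 4 of the 7 genes in NM-401 low (11.6% of features), 6 in NM-401 high (22.5%), 5 in Mitsui low (16%) and 5 in Mitsui high (14.6%). The calls depend on normalisation within each array: with median centring in place of loess, which raised the median standard error over all features from 0.10 to 0.31, Csf1, Il34 and Cx3cr1 were called in NM-401 high, and 0 genes in the other groups. No called gene of the 7 turned direction there, and the estimates behind the lost calls were 0.44 to 0.71 for Csf1 and Il34, 0.70 to 1.02 for Csf2, 0.61 to 0.89 for Cx3cr1, -0.83 to -0.57 for Cx3cl1 and 0.78 for Csf1r, each with a standard error between 0.31 and 0.44. All 7 tested genes were well above background in the lung channel in 25 of 25 animals, so none entered the test through the exposed animals alone. The median log2 change over all features was 0.00 in each exposure. All 4 exposures share the same 5 control animals, so their agreement is not independent.

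**Figure D1:**
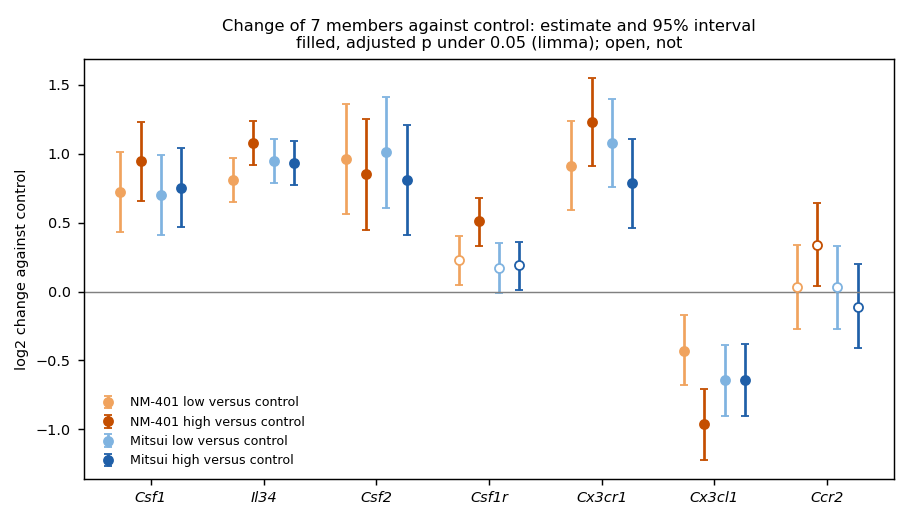
Log2 change against control (vertical axis) of the 7 tested genes in the 4 exposed groups, with 95% intervals from the limma model (n = 5 animals per group). Filled points have an adjusted p under 0.05: Csf1, Il34, Csf2 and Cx3cr1 lie above 0 and Cx3cl1 below 0 in every group, Csf1r is filled for NM-401 high, and Ccr2 is open throughout.

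Csf1, the main growth factor of macrophages, rose by 0.95 ± 0.14 on the log2 scale in NM-401 high, a fold of 1.93 (95% interval 1.58 to 2.35). The control lungs had log2 ratios of -1.83, -1.61, -1.46, -1.44 and -1.32. In NM-401 low the log2 ratios were -1.07, -1.01, -0.82, -0.67 and -0.49, and in NM-401 high they were -0.83, -0.77, -0.64, -0.56 and -0.14. Every NM-401 animal was above every control animal, and the low and high groups overlapped. The Mitsui low lungs had log2 ratios of -1.16, -0.95, -0.77, -0.64 and -0.63 and the Mitsui high lungs -1.14, -0.76, -0.73, -0.68 and -0.59, again all above the controls. The log2 changes of Csf1 were 0.72, 0.95, 0.70 and 0.75 in the group order, each ± 0.14, with adjusted p values of 0.001, 1.07e-05, 0.000813 and 0.000363 by limma.

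The array holds 3 probes for Csf1, which match 2 different accessions, so the gene could be read more than once. The probe used above is spotted 10 times per array, with a median SD of 0.05 between spots and a residual SD of 0.23 between animals, both on the log2 scale. Tested over all 30466 kept probes, all 3 Csf1 probes rose in each exposed group. Their log2 changes ran from 0.94 to 0.96 in NM-401 high and from 0.64 to 0.72 in NM-401 low. In the Mitsui groups they ran from 0.70 to 0.80 (low) and from 0.75 to 0.76 (high).

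Il34, which encodes the other CSF1R ligand, had the smallest standard error of the 7. Its log2 ratios in the control lungs were 0.52, 0.59, 0.66, 0.73 and 0.79. The NM-401 low lungs had 1.34, 1.38, 1.43, 1.49 and 1.68, and the NM-401 high lungs 1.59, 1.70, 1.79, 1.79 and 1.83. The lowest exposed animal of the NM-401 groups thus lay well above the highest control, and 1 low-dose animal reached into the range of the high dose. In Mitsui low the log2 ratios of Il34 were 1.49, 1.57, 1.59, 1.63 and 1.75 and in Mitsui high 1.44, 1.52, 1.53, 1.66 and 1.80, with no overlap with the controls. The log2 change was 1.08 ± 0.08 in NM-401 high (fold 2.12, interval 1.90 to 2.36, adjusted p = 8.64e-10). It was 0.81 ± 0.08 in NM-401 low, 0.95 ± 0.08 in Mitsui low and 0.93 ± 0.08 in Mitsui high, with limma's adjusted p at most 3.61e-07. By p, Il34 ranked 15th, 15th, 10th and 14th of the 22950 features in the group order. By size of change its ranks were 694, 828, 461 and 554. Il34 has 1 probe on the array.

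Csf2, which encodes GM-CSF, rose by 0.81 to 1.01 on the log2 scale, with no order by dose. Its control log2 ratios were 0.95, 1.27, 1.46, 1.75 and 1.84. They were 2.30, 2.31, 2.32, 2.42 and 2.75 in NM-401 low and 1.98, 2.02, 2.21, 2.67 and 2.67 in NM-401 high. The exposed animals were all above the controls, and the range of the high dose took in most of that of the low dose. Mitsui low had log2 ratios of 2.12, 2.25, 2.36, 2.53 and 3.05 for Csf2, and Mitsui high 1.87, 1.95, 2.29, 2.58 and 2.65. The lowest of these, in Mitsui high, stood just above the highest control. The log2 changes of Csf2 were 0.96, 0.85, 1.01 and 0.81 in the group order, each ± 0.19. The adjusted p ran from 0.000618 in Mitsui low to 0.00328 in Mitsui high (limma). Its probe is spotted 10 times per array, with a median SD of 0.10 between spots, against a residual SD of 0.33 between animals. The reference signal of Csf2 was low, with median Cy3 intensities from 65.1 to 88.6, though well above background in 25 of 25 animals. For the Csf3 probe, which was at background, the Cy3 intensities ran from 40 to 57.

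Csf3, which encodes G-CSF, was not well above background in any animal, in either channel. Its log2 ratios ran from -0.25 to 0.25 over all 25 animals, with a mean of -0.06 ± 0.13 (SD, n = 5) in the control and of 0.07 ± 0.11, 0.04 ± 0.10, 0.03 ± 0.06 and 0.05 ± 0.08 in the group order. At this signal a ratio carries no level, and a change of Csf3 was not detectable. Csf3r, the G-CSF receptor of neutrophils, was well above background in 25 of 25 animals and had log2 changes of -0.05, -0.13, -0.06 and 0.00, each ± 0.11, with 0 of the 4 past the test (adjusted p from 0.389 to 0.993 by limma). Of 8 tested neutrophil markers, 0, 2, 1 and 1 rose in the group order and 0 fell. The share called was 0%, 25%, 12.5% and 12.5%, beside 16.9%, 34.8%, 21% and 23.7% of all features. The markers that rose were named after their values were seen. They were Mmp8 (0.63) and Mmp9 (0.52) in NM-401 high, Mmp8 (0.68) in Mitsui low and Retnlg (1.01) in Mitsui high. The markers Ly6g and Ngp did not pass the filter.

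**Figure D2:**
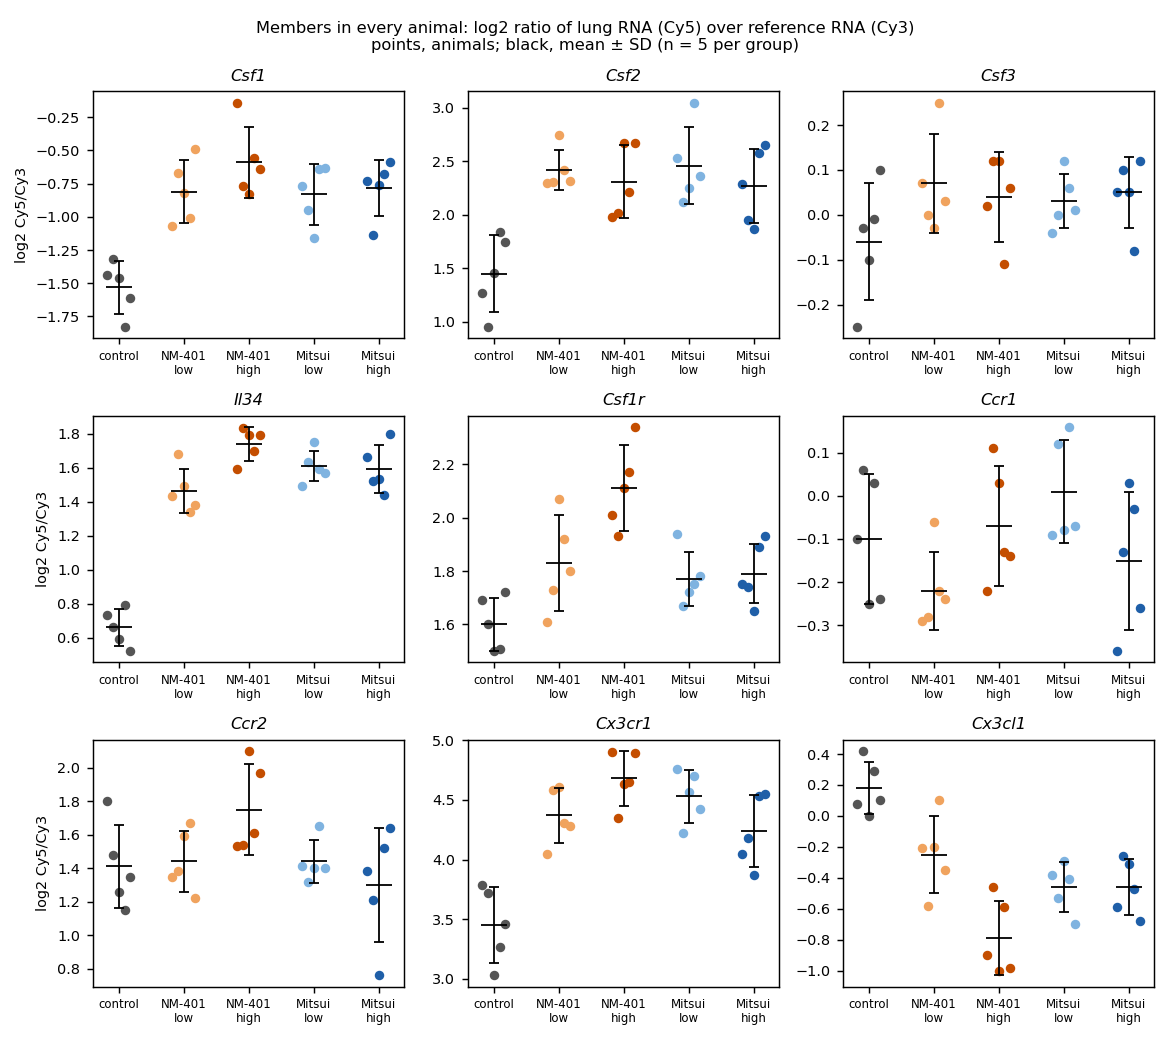
Log2 ratio of lung over reference RNA (vertical axes, a separate scale for each gene) in each of the 25 animals for the 9 genes, with the mean ± SD of each group of 5 in black. The exposed animals lie above the controls for Csf1, Il34, Csf2 and Cx3cr1, below them for Cx3cl1 apart from 1 NM-401 low animal, and the groups intermix for Csf3, Ccr1 and Ccr2.

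Csf1r encodes the receptor that CSF1 and IL-34 share, and its log2 changes were smaller than those of either ligand. The control lungs had log2 ratios of 1.5, 1.51, 1.60, 1.69 and 1.72. NM-401 low had 1.61, 1.73, 1.80, 1.92 and 2.07, and NM-401 high 1.93, 2.01, 2.11, 2.17 and 2.34. The high-dose animals were all above the controls, whereas the low-dose group overlapped with them. In Mitsui low the log2 ratios of Csf1r were 1.67, 1.72, 1.75, 1.78 and 1.94 and in Mitsui high 1.65, 1.74, 1.75, 1.89 and 1.93, which both overlapped with the controls. The log2 change was 0.51 ± 0.09 in NM-401 high, a fold of 1.42 (interval 1.26 to 1.61, adjusted p = 5.79e-05 by limma). It was 0.23 ± 0.09 in NM-401 low (adjusted p = 0.0728), 0.17 ± 0.09 in Mitsui low (0.178) and 0.19 ± 0.09 in Mitsui high (0.119), which missed the threshold. With slide as a fixed block, the changes in NM-401 low and Mitsui high passed it, at adjusted p values of 0.0269 and 0.0484 by limma. With slide as a random block NM-401 low passed it (0.03) and Mitsui high did not. Leaving out NM-401 low animal 1 also brought NM-401 low to 0.0299.

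Csf1r has 3 probes for 1 accession. All 3 rose in NM-401 high, by 0.51 ± 0.09, 0.52 ± 0.12 and 0.27 ± 0.10 on the log2 scale, and 0 of the 3 did so in the other exposed groups. In Mitsui high they differed in sign, at 0.19, 0.03 and -0.11, with adjusted p values of 0.124, 0.878 and 0.444 by limma over all probes.

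**Figure D3:**
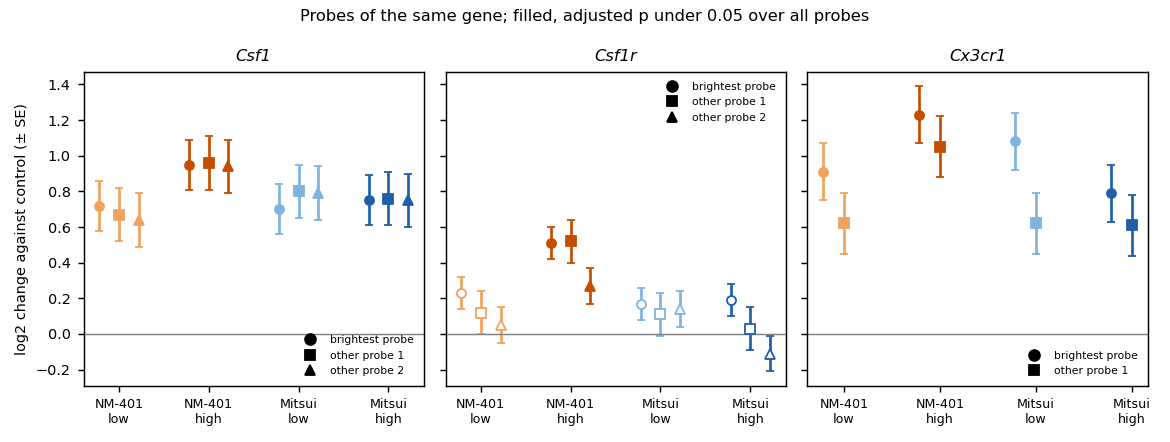
Log2 change against control ± SE (vertical axis) for each probe of Csf1, Csf1r and Cx3cr1 in the 4 exposed groups, filled where the adjusted p over all 30466 probes was under 0.05. The 3 Csf1 probes lie together between 0.64 and 0.96, the Csf1r probes are filled in NM-401 high, and the dimmer Cx3cr1 probe gives the smaller change of the pair.

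Cx3cr1, the receptor of fractalkine, rose by 0.79 to 1.23 on the log2 scale. Its log2 ratios in the control lungs were 3.03, 3.27, 3.46, 3.72 and 3.79. In NM-401 low they were 4.05, 4.28, 4.31, 4.58 and 4.61, and in NM-401 high 4.35, 4.63, 4.65, 4.89 and 4.90. No NM-401 animal overlapped with the controls. Mitsui low had log2 ratios of 4.22, 4.42, 4.57, 4.70 and 4.76 and Mitsui high 3.87, 4.05, 4.18, 4.53 and 4.55, the lowest of which was next to the highest control. The log2 changes of Cx3cr1 were 0.91, 1.23, 1.08 and 0.79 in the group order, each ± 0.16, of which the second is a fold of 2.35 (interval 1.88 to 2.93). Limma's adjusted p ran from 1.62e-06 in NM-401 high to 0.000725 in Mitsui high. The reference RNA was dim for this probe, being well above background in 21 of 25 animals, and for a second Cx3cr1 probe in 2. That second probe rose by 0.62, 1.05, 0.62 and 0.61, each ± 0.17. From the lung channel alone, an alternative added after the data were seen, the log2 change of Cx3cr1 was 1.00, 1.28, 1.12 and 1.01 in the same order. With the log ratios of the scanner software it lost its call in NM-401 low (0.74, adjusted p = 0.0543) and in Mitsui high (0.40, adjusted p = 0.294).

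Cx3cl1, the ligand of CX3CR1, was the 1 gene of the 9 to fall. The control lungs had log2 ratios of 0.00, 0.08, 0.10, 0.29 and 0.42. NM-401 low had -0.58, -0.35, -0.21, -0.20 and 0.10, and NM-401 high -1.0, -0.98, -0.90, -0.59 and -0.46. All NM-401 high animals and all but 1 of the NM-401 low animals were below every control. In Mitsui low the log2 ratios of Cx3cl1 were -0.70, -0.53, -0.41, -0.38 and -0.29 and in Mitsui high -0.68, -0.59, -0.47, -0.31 and -0.26, all below the controls. The log2 change was -0.96 ± 0.12 in NM-401 high (adjusted p = 1.83e-06), which brought the level to 0.513 of the control (interval 0.429 to 0.612). It was -0.43 ± 0.12 in NM-401 low (0.0186), -0.64 ± 0.12 in Mitsui low (0.000618) and -0.64 ± 0.12 in Mitsui high (0.000556), all by limma. The call in NM-401 low was lost without control animal 2 (-0.37, adjusted p = 0.0564) and without NM-401 low animal 2 (-0.35, adjusted p = 0.0691). Endothelium, where CX3CL1 is displayed, had 8 tested markers, of which 1, 4, 1 and 2 fell and 0 rose, although Ramp2, one of the 4, changed sign under median centring. Epithelium, the other site of display, had 9 tested markers, of which 0, 1, 2 and 2 rose and 0, 1, 0 and 0 fell. In the group order, 12.5%, 50%, 12.5% and 25% of the endothelial markers were called. For the epithelial markers the shares were 0%, 22.2%, 22.2% and 22.2%, and for all features 16.9%, 34.8%, 21% and 23.7%. Per animal, the mean level of the 8 endothelial markers, each set to its control mean on the log2 scale, ran from -0.19 to 0.16 in the control. It ran from -1.03 to -0.14 and from -0.51 to -0.28 at the NM-401 doses, and from -0.39 to -0.12 and from -0.38 to 0.01 at the Mitsui doses. In NM-401 low, Cdh5 had a log2 change of -1.60 ± 0.69 (adjusted p = 0.117 by limma), and the other endothelial markers ran from -0.40 to -0.05. The mean level of the epithelial markers per animal ran from -0.19 to 0.21 in the control and from -0.17 to 0.34 in the exposed groups. The part of either tissue in the fall of Cx3cl1 was not tested.

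CX3CL1 and CSF1 are both made as membrane proteins that proteases release. Of 6 listed genes for such shedding, Adam8, which encodes a protease of activated macrophages, rose in every exposed group, by 2.32, 3.07, 2.28 and 2.68 on the log2 scale in the group order. Timp3, which encodes a protease inhibitor, fell by 0.46, 0.72, 0.51 and 0.49 in the same order. Adam17, whose product is a main sheddase of both ligands, rose by 0.44 ± 0.10 in NM-401 high, and its log2 changes of 0.25, 0.14 and 0.12 in the other groups did not pass the test. Adam10, the protease of constitutive shedding, had log2 changes of 0.06, 0.07, 0.10 and 0.06, and like the remaining 2 listed genes it passed in 0 groups. Of the 6 genes, 33.3%, 50%, 33.3% and 33.3% were called, beside 16.9%, 34.8%, 21% and 23.7% of all features.

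Ccr2, the receptor of inflammatory monocytes, did not pass the test in any group. The control lungs had log2 ratios of 1.15, 1.26, 1.35, 1.48 and 1.80. NM-401 low had 1.22, 1.35, 1.38, 1.59 and 1.67, and NM-401 high 1.53, 1.54, 1.61, 1.97 and 2.10. Mitsui low had 1.32, 1.40, 1.40, 1.41 and 1.65, and Mitsui high 0.76, 1.21, 1.38, 1.52 and 1.64. Each exposed group overlapped with the control, and the high dose of NM-401 held the 2 highest lungs. The log2 change of Ccr2 was 0.34 ± 0.15 in NM-401 high (95% interval 0.04 to 0.64, adjusted p = 0.0746 by limma). It was 0.03 in NM-401 low (interval -0.27 to 0.34), 0.03 in Mitsui low (-0.27 to 0.33) and -0.11 in Mitsui high (-0.41 to 0.20). The change in NM-401 high passed the threshold with slide as a fixed block (0.36, adjusted p = 0.0312) and as a random block (0.35, adjusted p = 0.0342). It also passed without control animal 1 (0.44, adjusted p = 0.0233) and without Mitsui high animal 3 (0.34, adjusted p = 0.039). In the reference RNA the Ccr2 probe was well above background in 0 of 25 animals. From the lung channel alone the change in NM-401 high was 0.23 ± 0.14 (adjusted p = 0.224).

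Ccr1, the receptor of CCL3 and its relatives, was well above background in 1 of 25 animals, a Mitsui high lung. Its log2 ratios ran from -0.36 to 0.16, with a mean of -0.10 ± 0.15 (SD, n = 5) in the control and of -0.22 ± 0.09, -0.07 ± 0.14, 0.01 ± 0.12 and -0.15 ± 0.16 in the group order. With the filter lifted, Ccr1 and Csf3 had adjusted p values of at least 0.308 in each exposure, over 37076 features.

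The chemokines that these receptors answer to had large changes. Of 9 listed ligands of CCR1 and CCR2, 8 rose in each of the 4 exposed groups, and Ccl5 did not pass the test in any. That is 88.9% in each group, beside 16.9%, 34.8%, 21% and 23.7% of all features called in the group order. The median log2 change of the 9 was 2.17, 2.95, 2.46 and 2.29 in the group order, beside 0.00 over all features. With median centring in place of loess, 3, 8, 5 and 5 of the 9 rose. Among ligands of CCR2, Ccl7 rose by 3.47, 4.74, 3.60 and 3.39, Ccl2 by 2.76, 4.24, 3.01 and 3.07 and Ccl12 by 2.17, 3.01, 2.21 and 2.01, in the same order. Of the other chemokines on the list, Ccl4 rose by 2.18, 3.32, 2.46 and 2.29 and Ccl8 by 2.10, 2.91, 2.85 and 2.74. Of the ligands of CCR1, Ccl3 rose by 1.72, 2.67, 2.23 and 2.25 and Ccl9 by 2.43, 2.95, 2.88 and 2.96. Ccl5 had log2 changes of -0.11, -0.14, -0.03 and -0.24, with a standard error of 0.32.

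Of 26 other chemoattractant receptors tested, 3, 5, 3 and 4 rose and 2, 3, 5 and 2 fell in the group order, with median log2 changes of 0.02, 0.08, -0.13 and -0.12. The share called was 19.2%, 30.8%, 30.8% and 23.1%, near the 16.9%, 34.8%, 21% and 23.7% of all features. C3ar1, the receptor of complement C3a, rose by 1.33, 2.46, 1.52 and 1.70 in that order. Cxcr1, a receptor of neutrophil-attracting chemokines, rose by 2.56, 2.40, 2.26 and 2.48. Cxcr2, on the same list and among the neutrophil markers above, did not pass the test in any group (-0.21 ± 0.29 in NM-401 low). Ackr1, which binds chemokines on venules without signalling, rose by 1.26 ± 0.22 in NM-401 high and 0.66 in Mitsui high, and its changes of 0.54 and 0.52 in the low groups did not pass. It was well above background in 3 of 5 control lungs. The scavenging receptors Ackr2 and Ackr4, named after their values were seen, fell in every exposed group, by 0.96 and 0.82 in NM-401 high.

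The receptors and signalling partners of the growth factors rose in larger number than they fell. Of 26 listed, 12, 18, 10 and 11 rose and 1, 2, 2 and 1 fell in the group order, with median log2 changes of 0.30, 0.48, 0.20 and 0.26. The share called was 50%, 76.9%, 46.2% and 46.2%, beside 16.9%, 34.8%, 21% and 23.7% of all features. With median centring, 0, 4, 0 and 0 rose and 0 fell. Csf2rb and Csf2rb2, which encode the shared signalling chain of the GM-CSF receptor and its close copy, rose by 1.99 ± 0.14 and 2.48 ± 0.18 in NM-401 high, and their increases of 0.81 and 1.15 between the NM-401 doses also passed the test. The 2 genes are near-identical, so how signal divides between them is uncertain. Csf2ra, the chain that binds GM-CSF, rose by 0.30, 0.50, 0.43 and 0.39 in the group order. Tyrobp, a signalling adaptor of myeloid receptors, rose by 1.20, 1.93, 1.36 and 1.38, and Vav1, a signalling protein of blood cells, by 0.82, 1.37, 0.72 and 0.81. The members that fell in NM-401 high, named after their values were seen, were Kit (by 0.54), the receptor of stem cell factor, and Stat5b (by 0.46), a transcription factor that GM-CSF signalling activates.

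**Figure D4:**
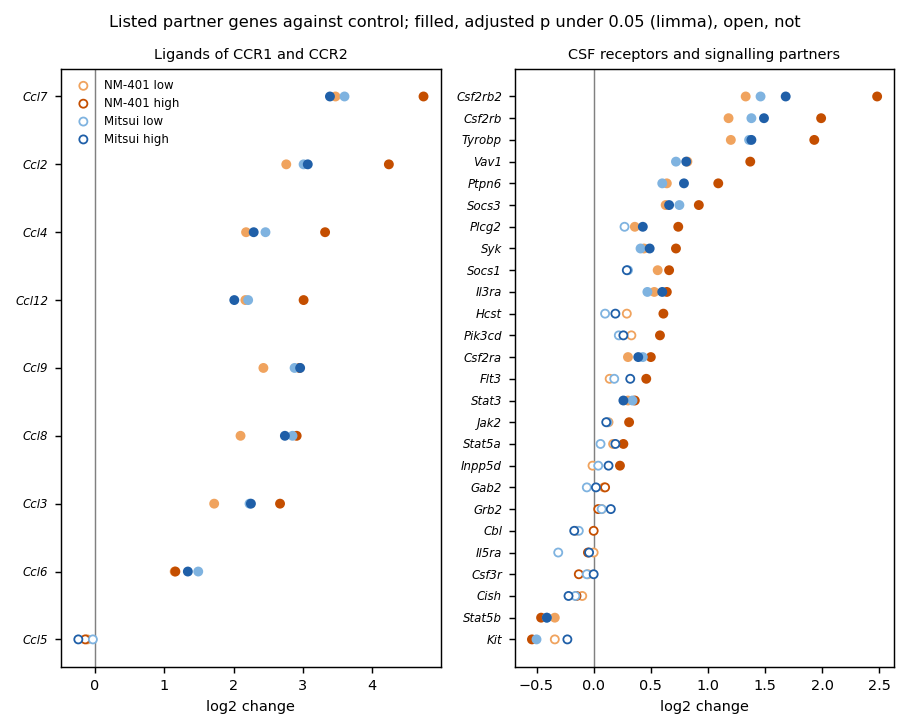
Log2 change against control (horizontal axes) of the 9 listed ligands of CCR1 and CCR2 and of the 26 listed receptors and signalling partners of the growth factors (rows), coloured by exposed group and filled where the adjusted p was under 0.05. Of the 9 ligands 8 lie far to the right in all groups, and Csf2rb2, Csf2rb, Tyrobp and Vav1 lie highest among the partners in NM-401 high.

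Among 19 transcription factors of myeloid cells, 6, 11, 7 and 8 rose in the group order, and Klf4 was the 1 that fell in each. The share called was 36.8%, 63.2%, 42.1% and 47.4%, beside 16.9%, 34.8%, 21% and 23.7% of all features. With median centring, 0, 6, 0 and 0 rose and 0 fell. Klf4, which monocytes use, fell by 0.62, 1.36, 0.98 and 0.84 in that order. Egr2, which macrophages induce, rose by 1.15, 1.74, 1.11 and 1.30, and Bhlhe40, which supports macrophage proliferation, by 0.85, 1.41, 1.02 and 1.17. Of 10 other growth factors listed, Il3, Il5, Epo and Thpo did not pass the filter, and of the 6 tested 2, 2, 1 and 2 rose and 0, 2, 2 and 2 fell. These calls made up 33.3%, 66.7%, 50% and 66.7% of the 6, beside the same shares of all features. Il6, a pleiotropic cytokine of inflammation, rose by 1.34, 2.16, 1.20 and 1.15, though it was well above background in 2 of 5 control lungs. Kitl, the stem cell factor gene, fell by 1.34 in NM-401 high, 0.78 in Mitsui low and 0.72 in Mitsui high, and its change of -0.66 in NM-401 low did not pass (adjusted p = 0.0896 by limma).

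Markers of interstitial and recruited macrophages rose beside these genes, and a smaller share of the other myeloid markers was called. Over all features, 16.9%, 34.8%, 21% and 23.7% were called in the group order. Of 11 tested markers of interstitial and recruited macrophages, 11, 11, 11 and 10 rose in the group order, although Folr2 changed sign in both low groups with the log ratios of the scanner software. Their mean level per animal, with each marker set to its control mean on the log2 scale, was -0.16 to 0.13 in the control. It was 1.18 to 1.99 and 1.93 to 2.56 at the NM-401 doses, and 1.63 to 1.98 and 1.27 to 2.03 at the Mitsui doses. The marker Cd163 was at background in 25 of 25 animals. Of 7 classical monocyte markers, 1, 4, 3 and 2 rose, a share of 14.3%, 57.1%, 42.9% and 28.6%. Their mean level was -0.19 to 0.20 in the control. It was 0.17 to 0.50, 0.36 to 0.68, 0.27 to 0.42 and 0.21 to 0.48 in the group order. Ly6c2 was not tested among them. Of 7 nonclassical monocyte markers, 1, 2, 1 and 1 rose, a share of 14.3%, 28.6%, 14.3% and 14.3%. Their mean level of -0.33 to 0.26 in the control overlapped with that of each exposed group. Of 10 alveolar macrophage markers 2 rose in each group, and 0, 6, 2 and 3 fell, so that 20%, 80%, 40% and 50% were called. Their mean level was -0.07 to 0.10 in the control. It was -0.06 to 0.28, -0.85 to 0.14, -0.35 to 0.70 and -0.26 to 0.13 in the group order. Of 8 markers of natural killer and T cells 0, 1, 0 and 0 rose and 0, 1, 1 and 0 fell, and of 5 dendritic cell markers 0, 1, 0 and 0 rose and 0, 0, 1 and 0 fell. Of 7 stromal markers 1, 2, 1 and 2 rose and 3, 3, 3 and 2 fell, of 6 heart muscle markers 1 fell, in NM-401 high, and of 5 B cell and 3 liver markers 0 were called. The part of these cells in the changes of Csf1, Csf2, Csf1r and Cx3cr1 was not tested.

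Between the doses of NM-401, 2 of the 7 genes differed, where 3.84% of all features did (2.69% higher and 1.15% lower at the high dose). Cx3cl1 was lower at the high dose, by 0.54 ± 0.12 on the log2 scale (adjusted p = 0.0186 by limma), with all 5 high-dose lungs below the mean of the low dose. Il34 was higher at the high dose, by 0.28 ± 0.08 (adjusted p = 0.0456), with all 5 above that mean. For both genes, as for the other 5, the dose groups overlapped, and 3.69% of features did not. The log2 differences of the other genes were 0.28 for Csf1r (adjusted p = 0.0657), 0.32 for Cx3cr1 (0.284), 0.31 for Ccr2 (0.263), 0.23 for Csf1 (0.413) and -0.11 for Csf2 (0.831). The call of Il34 was lost in 15 of the 25 fits that each left out 1 animal, among them those without NM-401 low animal 1, 3, 4 or 5 or NM-401 high animal 2, 3, 4 or 5, where its difference ran from 0.24 to 0.29. With median centring the differences were 0.65 ± 0.36 for Il34 (adjusted p = 0.603) and -0.07 ± 0.41 for Cx3cl1 (adjusted p = 0.924). As measured, the size of the latter was nearly lost. The median difference over all features was itself 0.30 there, and both values include that shift. Among the fits that left out 1 animal, the call of Cx3cl1 was lost in 4, without NM-401 low animal 1 or 4 or NM-401 high animal 3 or 5 (-0.53 to -0.45, adjusted p from 0.0553 to 0.0747).

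Between the doses of Mitsui XNRi-7, 0 of the 7 genes and 0% of all features differed by limma, and 0 of the 7 had an unadjusted p under 0.05. Estimated log2 differences were -0.02 for Il34 (95% interval -0.18 to 0.14), 0.02 for Csf1r (-0.16 to 0.20) and 0.00 for Cx3cl1 (-0.25 to 0.26). They were 0.05 for Csf1 (-0.24 to 0.34), -0.19 for Csf2 (-0.59 to 0.21), -0.14 for Ccr2 (-0.44 to 0.17) and -0.29 for Cx3cr1 (-0.62 to 0.03). The intervals of Csf1, Csf2, Ccr2 and Cx3cr1 are thus wide enough to hold differences as large as that of Il34 between the NM-401 doses. The dose step of NM-401 minus that of Mitsui was called for 0 of the 7 genes, where 0.0305% of features were called, although 5 of 7 had an unadjusted p under 0.05. The largest such differences were 0.61 ± 0.22 for Cx3cr1 (adjusted p = 0.24) and -0.54 ± 0.18 for Cx3cl1 (adjusted p = 0.196).

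**Figure D5:**
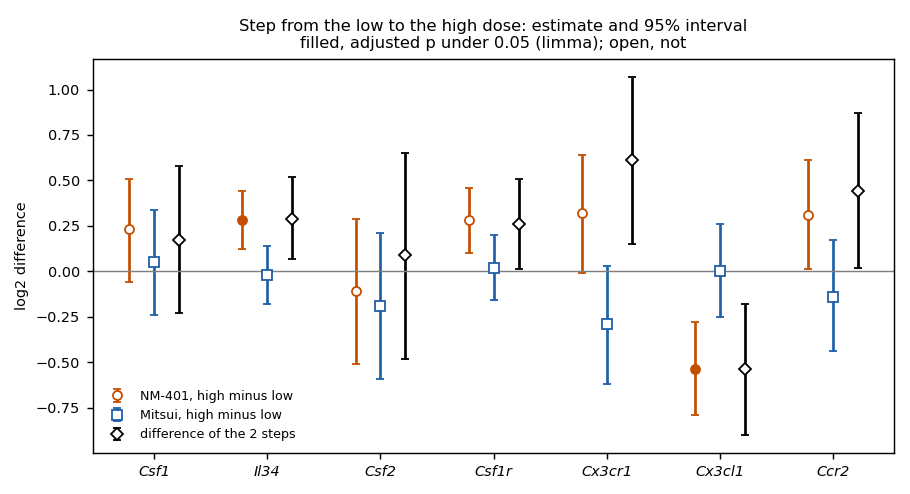
Log2 difference between the high and the low dose (vertical axis) of the 7 tested genes for each material, and the difference of the 2 steps, with 95% intervals from the limma model (n = 5 animals per group). Filled points, with an adjusted p under 0.05, are those of Il34 (0.28) and Cx3cl1 (-0.54) for NM-401.

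At the low dose the materials differed in 0 of the 7 genes by limma, and in 0% of all features, with 0 of the 7 at an unadjusted p under 0.05. The log2 differences, NM-401 minus Mitsui, were within -0.17 (Cx3cr1, interval -0.49 to 0.16) and 0.22 (Cx3cl1, -0.04 to 0.47). At the high dose 0 of the 7 were called, against 0.793% of features, and 4 had an unadjusted p under 0.05. These were Csf1r at 0.32 ± 0.09 (adjusted p = 0.0709), Ccr2 at 0.45 ± 0.15 (0.119), Cx3cr1 at 0.44 ± 0.16 (0.144) and Cx3cl1 at -0.32 ± 0.12 (0.179). Csf1r, whose NM-401 high lungs were all at or above the highest Mitsui high lung, was the 1 gene of the 7 without overlap, as were 2.67% of features. It passed the threshold without NM-401 high animal 2 (0.36, adjusted p = 0.0267) and without Mitsui high animal 5 (0.35, adjusted p = 0.0337), which also brought Ccr2 past it (0.53, adjusted p = 0.0467). The dose step of Csf1r within NM-401 passed likewise without NM-401 low animal 3 (0.34, adjusted p = 0.0261) or NM-401 high animal 2 (0.33, adjusted p = 0.0342), and with the log ratios of the scanner software (0.29, adjusted p = 0.0478).

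Groups were spread over 4 array slides, and no NM-401 high lung was on slide 2. Within slides, the log2 change of Csf1, Csf2, Il34, Csf1r and Cx3cr1 against the controls of the same slide was above 0 on every slide in every exposed group. It ran from 0.45 to 1.32 for Csf1, from 0.69 to 1.19 for Il34, from 0.11 to 2.10 for Csf2, from 0.08 to 0.75 for Csf1r and from 0.58 to 1.87 for Cx3cr1. That of Cx3cl1 was below 0 throughout, from -1.07 to -0.31, apart from NM-401 low, where it ran from -0.82 to 0.01. For Ccr2 the sign differed between slides in NM-401 low, Mitsui low and Mitsui high. Between the NM-401 doses, Il34 was higher by 0.21 to 0.47 and Cx3cl1 lower, from -0.83 to -0.54, on each of the 3 slides that held both. A slide holds 1 or 2 lungs per group, so these are values without a test. Mitsui low animal 5 was read on slides 3 and 4, and was the only lung of its group on slide 4. The 2 arrays of the Mitsui low lung that was hybridised on 2 slides differed by 0.08 (Cx3cl1) to 0.47 (Ccr2) on the log2 scale, which includes 0.43 for Csf2 and 0.37 for Cx3cr1.

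The genes whose pattern over the 25 animals lay closest to each called gene were found by the root mean square difference in log2 ratio, with each gene set to its control mean, over 14781 genes with a symbol. Nearest to Csf1 were Cd74, the invariant chain of MHC class II, at 0.15 and Anpep at 0.16. For Il34 they were Slc39a11 at 0.14 and Tuba1c at 0.15, and for Csf2 Zmynd15 at 0.26 and Myo15 at 0.28. Cx3cr1 lay closest to C1qc, a complement chain of macrophages and 1 of the macrophage markers above, at 0.21 and to Nckap1l at 0.23. Cx3cl1 lay closest to Pxdn and Tmcc3, both at 0.13. By the same measure each gene's own distance from its control mean was 0.73 for Csf1, 0.85 for Il34, 0.87 for Csf2, 0.94 for Cx3cr1 and 0.65 for Cx3cl1. The animals share slides and control means across genes, and these distances are a description.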

How the data were processed

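Lung RNA of 25 animals was read on 26 two-colour Agilent arrays (1 Mitsui low animal on 2, averaged). Each deposited scanner file gives the median intensity of a spot and of its background in both dyes, per the file headers. It also gives the log10 ratio of the dyes computed by Agilent Feature Extraction 11.0.1.1 from its own corrected signals, per the file headers. Other deposited columns are flags for outlier spots and for spots well above background, per the file headers. The authors also deposited normalised log2 ratios, by a method not given in the sources used here. From the median signals, R 4.3.3 and limma 3.58.1 removed background (normexp, offset 50) and normalised each array by loess. Outlier spots (0.461%) were dropped. A probe was kept where some group had 4 or more animals with Cy5 well above background, which 30466 of 55681 probes met. On an array 45.8% to 62.1% of probes passed in Cy5, and 46.4% to 64.4% passed in Cy3. Precision is limited by the number of animals. A gene was read by its kept probe of highest mean intensity, which left 22950 features, 14838 with a symbol through RefSeq accessions (GRCm38.p6).

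The model had 1 mean for each group and used all animals (20 residual and 3.76 prior degrees of freedom, empirical Bayes), and the script was tested on simulated data. The slide term of the 7 genes had adjusted p values from 0.0961 to 0.629, and it was under 0.05 for 5965 of the 22950 features. The genes and lists were chosen with earlier results of these data known. Named are all 9 genes, per list up to 4 called genes with the largest change in NM-401 high, listed partner receptors and ligands, and the 2 nearest patterns per gene called in 2 or more exposures. Some genes that this rule names are counted but not reported here. Alternatives covered background correction, normalisation, scaling, filter, probe choice, slide, replicate number, variance model, animals in the fit, the repeated array and each animal left out. Whether the animals of a group are separate in housing or exposure batch is not given. The p-values weigh group differences against the spread between these animals.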

Additional observations from a re-analysis of the deposited data

Results flagged for a closer look

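Of 45 groups of 5 animals examined (9 genes in 5 groups), 2 held an animal whose gap to its nearest neighbour exceeded 0.71 of the group's range, and chance does so in about 1 of 20 groups. Csf2 in NM-401 low animal 3 had a log2 ratio of 2.75, against 2.42 for the next animal. Ccr2 in Mitsui low animal 4 had a log2 ratio of 1.65, against 1.41 for the next.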

How the results depend on the processing

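Under median centring in place of loess, 0, 3 (Csf1, Cx3cr1 and Il34), 0 and 0 of the 7 genes were called in the group order and 0 between the NM-401 doses. There the median standard error over all features was 0.31 instead of 0.10, and the median change of all features was -0.11, 0.17, -0.14 and -0.13 in the group order and 0.30 between the NM-401 doses. It called 62 features (52 higher), 1064 (951), 74 (62) and 121 (105) in these exposures and 8 (8) between the doses, where loess called 3890 (2054), 7976 (4222), 4809 (2425), 5447 (2915) and 881 (618). Between the NM-401 doses 1 gene was called, Cx3cl1, with no background correction, the authors' deposited values, no filter, the replicate block, trend and robust variance, or the lung channel alone (added after seeing the data), and 0 with only the groups compared; there the share of called features that were higher was 58.9% with the deposited values and 56.4% from the lung channel, which also moved it from 52.8% to 42% in NM-401 low. Between the materials at the high dose it was 58.2% with loess, 43.6% with the log ratios of the scanner software, 42% with the deposited values and 41.9% from the lung channel. With those log ratios Csf1r was called between the NM-401 doses (0.29, adjusted p = 0.0478), and with median centring Cx3cl1 there came to -0.07 (adjusted p = 0.924). The replicate block changed no other count; same replicate numbers did not pair animals, since over 50 same-numbered pairs the correlation of deviations ran from -0.38 to 0.41 (mean 0.01). With the mean of all kept probes 1 gene, Csf1r, was called between the materials at the high dose. Leaving out each animal gave 4 to 6 called genes with NM-401 low, 6 to 7 with NM-401 high, 5 with either Mitsui dose, 0 to 2 between the NM-401 doses and 0 to 2 between the materials at the high dose. Apart from median centring, the calls lost were those of Il34 and Cx3cl1 between the NM-401 doses, Cx3cl1 in NM-401 low and Cx3cr1 in NM-401 low and Mitsui high, and 0 called values of the 7 genes reversed sign under any alternative that was run. Of the listed genes called with loess, Hopx and Ramp2 turned sign in NM-401 high with median centring, and with the log ratios of the scanner software Folr2 did so in both low groups and Cxcr5 in Mitsui low. Csf1, Il34 and Csf2 kept their calls in all 4 exposures in every other alternative. The cause was not tested. The planned normexp on mean spot signals was not run, as the spot values read here held median signals and no mean signals. Csf3 and Ccr1 at background, and the dim reference signal of Ccr2, Cx3cr1 and Csf2, limit those ratios.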
